A study of Mus musculus with 6 samples.

Results

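Jun peaks lay more thickly along Col27a1 than almost anywhere else in a list of Jun binding sites from mouse rib cartilage, and the peaks of this locus are described here. Members are the peaks whose midpoint falls between positions 62800001 and 63050000 of chromosome 4 on the mouse genome build mm9. There were 143 of them among 99162 peaks in the list, or 0.144% of the list and 2.27% of the 6297 peaks on chromosome 4. The window was chosen by the positions and the density of its peaks, so the number of peaks and their close spacing are given as a description and were not tested. The position of Col27a1, about 62876000 to 62996000, was taken as given with the window. It is known here only to the nearest kb, and no mm9 annotation was at hand to check it or to place exons and introns.

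The list came from 1 ChIP-seq library for Jun, prepared together with 1 library of input DNA from chondrocytes of untreated wild-type ICR mice at postnatal day 1. The chondrocytes were freed from rib cartilage with enzymes and fixed at once, and 20000000 cells went into a precipitation with 9 μg of Jun antibody. Sonication left fragments of 100 to 600 bp. Whether animals were pooled is not stated. The other 4 of the 6 samples are RNA-seq libraries of sorted Col10a1mCherry chondrocytes and were not analysed here. The study set Jun beside Sox9, the factor that drives cartilage formation, to ask how AP-1 acts while chondrocytes become hypertrophic. A peak in the list has a start and an end and no height, score or read count. The depth is therefore unknown, no replicate library allows a check of single peaks, and the labelled cell type could not be checked against marker genes.

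Col27a1 encodes the chain of type XXVII collagen, a fibrillar collagen made mainly by cartilage and needed in mice for an ordered growth plate. Jun is a subunit of AP-1, a family of dimers that bind short motifs of the form TGANTCA and act at both promoters and distant enhancers. In the searches below, N was any base, so matches need not be preferred AP-1 sites. Mir455, the gene of a microRNA abundant in cartilage, lies within Col27a1 in the RefSeq gene table of the later build GRCm38. In the same table the protein-coding neighbours before Col27a1 are Zfp618, Ambp and Kif12, and those after it are Orm1, Orm3, Orm2 and Akna. Ambp and the Orm genes encode plasma proteins made mainly by the liver.

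The promoter is shown because no Jun peak covered the approximate start of the gene, and the microRNA because it lies inside the gene. Where the microRNA lies relative to the peaks was not determined. All sequences are from RefSeq, build GRCm38.p6, chromosome 4, plus strand, and run 5′ to 3′. The promoter has 300 bases, of which 250 lie before the annotated start. Capitals mark TGANTC, the AP-1 motif without its last base, in the promoter, and the seed (bases 2 to 8) in the microRNAs.
Col27a1 promoter: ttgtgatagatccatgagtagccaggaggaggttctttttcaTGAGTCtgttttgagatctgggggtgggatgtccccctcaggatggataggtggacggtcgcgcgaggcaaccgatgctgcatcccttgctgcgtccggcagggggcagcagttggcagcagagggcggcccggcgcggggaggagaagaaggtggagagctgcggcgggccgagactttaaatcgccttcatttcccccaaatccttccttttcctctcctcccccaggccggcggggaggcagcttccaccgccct
mmu-miR-455-5p: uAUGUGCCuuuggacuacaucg
mmu-miR-455-3p: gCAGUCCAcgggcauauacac
Neither TGANTCA nor TGACGTCA, searched on both strands, occurs in these 300 bases. Of 32851 mouse promoters of the same length, 7.81% hold TGANTCA and 1.79% hold TGACGTCA. The shorter TGANTC, which every TGANTCA contains and which was searched after the sequence had been seen, occurs 1 time, starting 208 bases before the gene's start, and is found in 34.7% of the promoters. A match or its absence is a property of these letters only and says nothing of Jun binding.

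Jun peaks filled the gene and the stretch before it, and stopped just past its end. Of the 143 peaks, 28 (19.6%) had their midpoint before the gene, 112 (78.3%) within it and 3 (2.10%) after it. Within the gene this came to 9.33 peaks per 10 kb (exact Poisson 95% interval 7.68 to 11.2, counting error only). Before the gene the density was 3.68 per 10 kb (2.45 to 5.32), and after it 0.556 per 10 kb (0.115 to 1.62). These intervals are too narrow for peaks that lie in groups. The window was chosen for its density and its edges set the length of the flanks. The 3 densities are therefore a description and were not tested against each other.

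**Figure D1:**
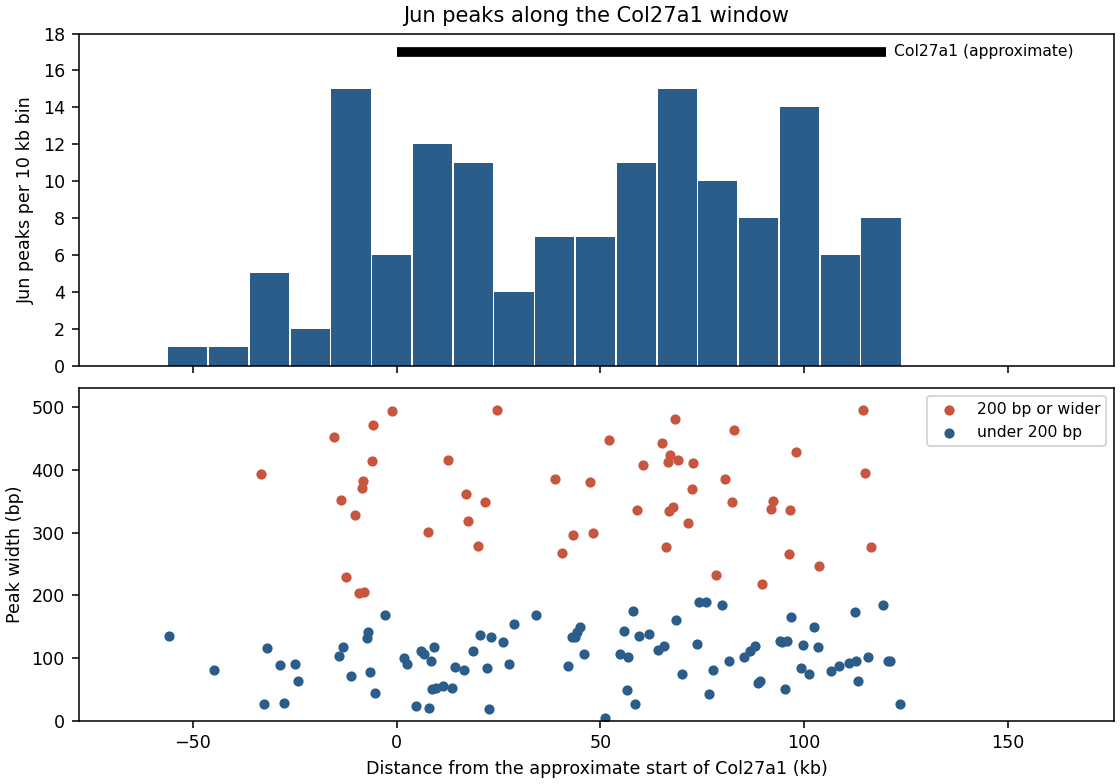
Jun peaks along the Col27a1 window by distance from the approximate gene start in kb. Bars in the upper panel count peaks in bins of 10 kb, and points in the lower panel give the width of each of the 143 peaks in bp. The bar of the gene covers 13 bins with 4 to 15 peaks each, and the 5 bins at the right end are empty.

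The approach to the gene was uneven. The first peak of the window, at 62820105 to 62820239, lay 55.8 kb before the gene and was followed after 11001 bp by the second (62831133 to 62831213), both distances taken between midpoints. The widest space in the window, 11485.5 bp, came next and ended at a peak of 394 bp (62842462 to 62842855). From there on no neighbours were as far as 10 kb apart, and 141 peaks formed 1 chain of 157012 bp that ended at 62999473. A last wide space of 8847 bp lay between the peaks at 62851888 to 62851950 and 62860540 to 62860992. Between these 2 spaces lay 7 peaks (62842462 to 62851950), in runs of 3, 2 and 2 with midpoints at most 1 kb apart. Only the first 2 peaks of the window thus lay outside the chain, and the next 7 lay in small runs. The fullest crowd before the gene followed the last wide space.

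The crowd before the gene was as full as any stretch of 10 kb in the list. There, 17 peaks lay between 62860540 and 62870762, 15.5 to 5.24 kb before the gene. Windows of 10 kb with 17 peaks also occurred on chromosomes 2 and 15, and no such window held more. In fixed bins the fullest 10 kb were 62860001 to 62870000 and 62940001 to 62950000, with 15 peaks each. Of the 17 peaks, 10 were 200 bp or wider, and together they covered 3799 bp. Which annotated feature lies there, Kif12 being the neighbouring gene on this side, was not determined.

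No peak covered the approximate start of the gene. The interval from 62875230 to 62877869, which contains it, was free of peaks over 2640 bp. Such a gap was not particular to the start. Longer ones lay within the gene, the longest of 5286 bp, and peaks covered only 17.8% of the gene. The gap at the start was bordered by very different peaks. The last before it was one of the widest of the locus, 494 bp (62874736 to 62875229), at place 67479 of the list. The first after it was 100 bp wide (62877870 to 62877969) and stood at place 111, the earliest of all members. Since the start is known only to the nearest kb, the gap cannot be set against the promoter base by base.

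Inside the gene, peak numbers went up and down without a trend from end to end. Cut into 5 parts of 24 kb, the gene held 25, 15, 26, 25 and 21 peaks from its start to its end. The second part had 6.25 peaks per 10 kb (95% interval 3.50 to 10.3) and the third, the fullest, 10.8 (7.08 to 15.9). These intervals overlapped, which does not show that the parts are alike, and the parts were not tested against each other. The sparsest stretch of the gene lay in the second part. Between 62904841 and 62914656, or 28.8 to 38.7 kb into the gene, 9816 bp held 1 peak, at 62910127 to 62910295. None of the 13 bins of 10 kb that touched the gene was empty, and their median was 8 peaks.

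The peaks at the end of the gene were followed by an empty stretch. The last peak within the gene bounds spanned 62995293 to 62995477. After the gene came peaks at 62996533 to 62996627 and 62997041 to 62997135, each 95 bp wide. The last member, of 27 bp, spanned 62999447 to 62999473, 3.46 kb past the gene. From there the window was empty for 50.5 kb. The nearest peak beyond it lay at 63064130 to 63064279, 64744.5 bp from the last member. On the other side, the nearest peak outside the window lay at 62744145 to 62744226, 75986.5 bp from the first member. The locus was set apart from other peaks on both sides.

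**Figure D2:**
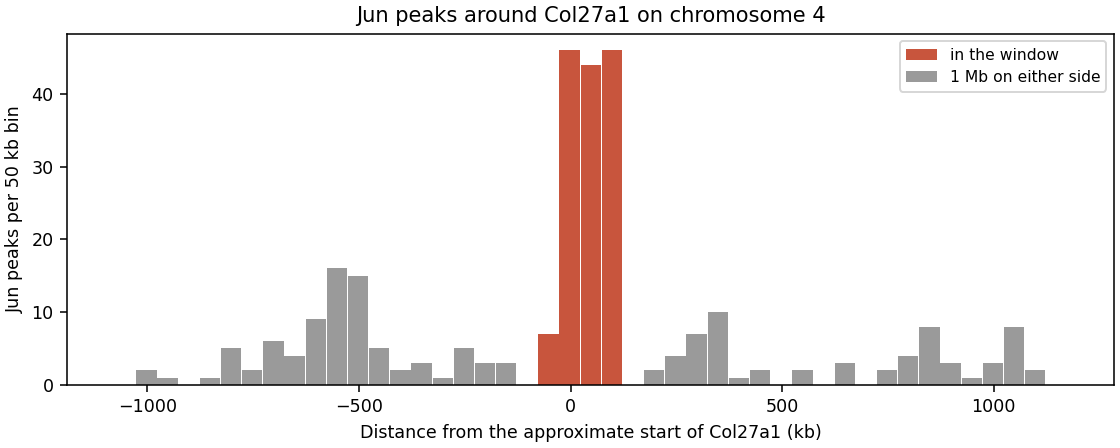
Jun peaks in bins of 50 kb on chromosome 4, within the Col27a1 window and 1 Mb on either side of it, by distance from the approximate gene start in kb. The 3 tall bins hold 46, 44 and 46 peaks, against at most 16 in any bin before the window and at most 10 in any bin after it.

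The surroundings held far fewer peaks than the window, though more per 10 kb than the rest of the list. The Col27a1 window held 5.72 peaks per 10 kb, against 0.830 (95% interval 0.661 to 1.03) in the 1 Mb before it and 0.620 (0.475 to 0.795) in the 1 Mb after it. The rest of chromosome 4 had 0.404 per 10 kb and the rest of the list 0.386. The window was thus 6.89 and 9.23 times as dense as its flanks and 14.8 times as dense as the rest of the list. The fullest neighbouring stretch, 62300001 to 62400000, held 16 and 15 peaks in its 2 bins of 50 kb, before the window.

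Whether Col27a1 is the densest locus depended on how density was counted. It held the fullest chain of midpoints within 10 kb of each other and the fullest fixed tile of 100 kb, 62900001 to 63000000, with 90 peaks. For windows free to start anywhere, a locus on chromosome 1 was fuller. The best 100 kb at Col27a1 held 99 peaks, against 112 on chromosome 1, and the best 250 kb 145 peaks, against 161. At 50 kb the values were 58 at Col27a1 and 64 on chromosome 1.

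Neighbouring peaks at Col27a1 were typically less than 1 kb apart. The median distance between successive midpoints was 840.5 bp (95% order-statistic interval 676 to 1060.5 bp), with the central 50% between 504 and 1374 bp. Over all neighbouring pairs of the list the median was 5651.5 bp. Of the 142 pairs in the window, 81 (57.0%) were within 1 kb, against 23.3% of the pairs of the list. The closest pair, 201 bp apart, was the only one under 248 bp. None of the 142 pairs was closer than 200 bp, against 965 of the 99141 pairs (0.973%) in the list.

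Joining peaks with midpoints at most 1 kb apart left 62 runs, 34 of which were single peaks. The 7 runs with 5 or more peaks together held 52. The fullest joined 12 peaks over 5879 bp (62864884 to 62870762) in the crowd before the gene. Peaks covered 43.3% of it. The next joined 10 peaks over 4251 bp (62940863 to 62945113), 64.9 to 69.1 kb into the gene, and was nearly continuous, with 73.1% covered. Its peaks had a median width of 376.5 bp, and 8 of the 10 were 200 bp or wider. The third run, of 8 peaks over 3927 bp (62881828 to 62885754), looked different. It lay in the first part of the gene, 5.83 to 9.75 kb from its start, had a median width of 101.5 bp with 1 wide peak, and peaks covered 21.8% of it.

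Some peaks overlapped their neighbour. Overlaps joined 9 pairs made of 16 peaks, 6.34% of the neighbouring pairs, against 1.51% of the peaks in the list that overlap one before them. The shared stretch was 36 to 193 bp, and the midpoints of these pairs were 248 to 307 bp apart. Of the 16 peaks, 15 were 200 bp or wider and the exception measured 161 bp. Overlapping partners did not stand near each other in the list. Their places differed by 3315 to 40920.

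Peaks at Col27a1 were on the whole wider than elsewhere, and the difference lay in the wider part of the distribution. The median width was 135 bp (95% order-statistic interval 119 to 168) in the window, against 114 bp in the rest of the list. The lower quartiles were close, 91 bp in the window and 88 bp in the rest of the list. The upper quartile was 323 bp in the window and 151 bp in the rest of the list. Together the peaks covered 27079 bp, or 10.8% of the window, against 0.523% of the span of the rest of the list.

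**Figure D3:**
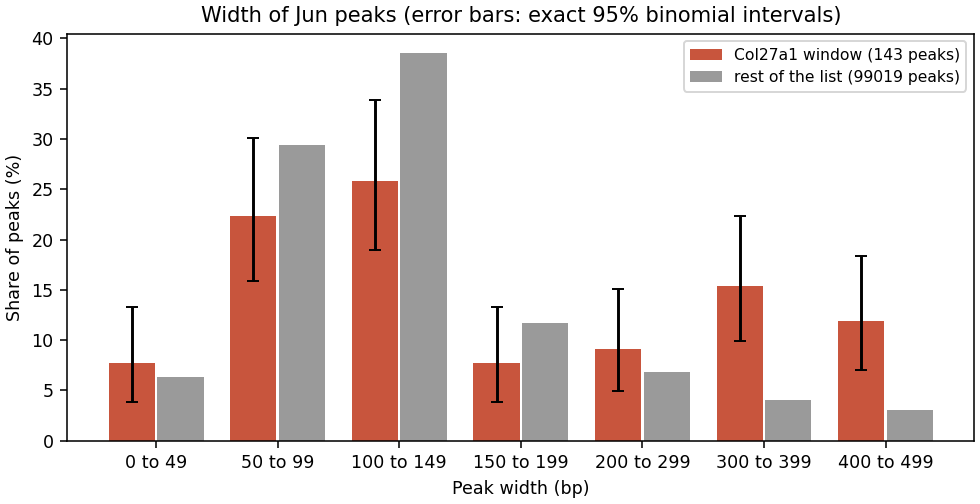
Share of Jun peaks in 7 width classes in bp, in the Col27a1 window and in the rest of the list. Error bars are exact 95% binomial intervals and cover counting error only. The classes of 300 to 399 and 400 to 499 bp hold 15.4% and 11.9% of the peaks in the window, against 4.04% and 3.07% of the rest of the list.

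Of the 143 peaks, 52 (36.4%, exact Clopper-Pearson 95% interval 28.5 to 44.8) measured 200 bp or more, against 14.0% in the rest of the list. For 400 bp or more the shares were 11.9% (7.08 to 18.4) in the window and 3.08% in the rest of the list. Peaks under 50 bp were about as frequent, 7.69% (3.90 to 13.3) in the window and 6.30% in the rest of the list. Peaks of one locus are not independent replicates, so these shares carry counting intervals and no test. In the flanks, 13.3% of the 83 peaks before the window and 6.45% of the 62 after it reached 200 bp.

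The widest peaks were spread over the locus and stopped short of 500 bp. The widest, 496 bp (62990100 to 62990595), lay 114 kb into the gene. The next, 495 bp (62900403 to 62900897), lay 24.7 kb into it. The peak of 494 bp before the gene start was described above. One of 481 bp (62943966 to 62944446) belonged to the run of 10 within the gene, and one of 472 bp (62869914 to 62870385) to the run of 12 before it. No member reached 500 bp, which 11 peaks of the list did. The narrowest member measured 5 bp (62927103 to 62927107).

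The share of wide peaks varied between the 5 parts of the gene, with counting intervals that overlapped. In the first part of the gene 6 of 25 peaks (24.0%) reached 200 bp and the median width was 100 bp. In the third part 13 of 26 (50.0%) did and the median was 226 bp. The counting intervals of these shares, 9.36 to 45.1% and 29.9 to 70.1%, overlapped. Before the gene 12 of 28 peaks (42.9%) were wide, and none of the 3 peaks after it. Neighbours were both wide in 20 of the 142 pairs. With 36.4% of all members wide, such pairs arise without any grouping, and none is read from this count. Across the 143 peaks, the rank correlation (Spearman's rho) of width with the distance to the nearest midpoint was -0.18, and Pearson's r was -0.11. With position along the window, rho was 0.056 and r 0.042. These values describe peaks that share 1 locus and library.

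The deposited list is not in genomic order, and no label explains its order, so a place is not read as strength. The members were found all along it, with the median at 56.8% of the list (95% order-statistic interval 50.7 to 65.1), against 50.0% for the rest of the list. The first 10% of the list held 11 members (7.69%) and the last 10% held 12 (8.39%). The stretch from 70% to 90% of the list, picked after the counts were seen, held 42 members (29.4%), of which 24 were wide. Among the other peaks, 17.9% were wide between 70% and 80% of the list and 20.7% between 80% and 90%. The last 10% went the other way, with 2 of its 12 members wide against 24.7% of the other peaks.

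**Figure D4:**
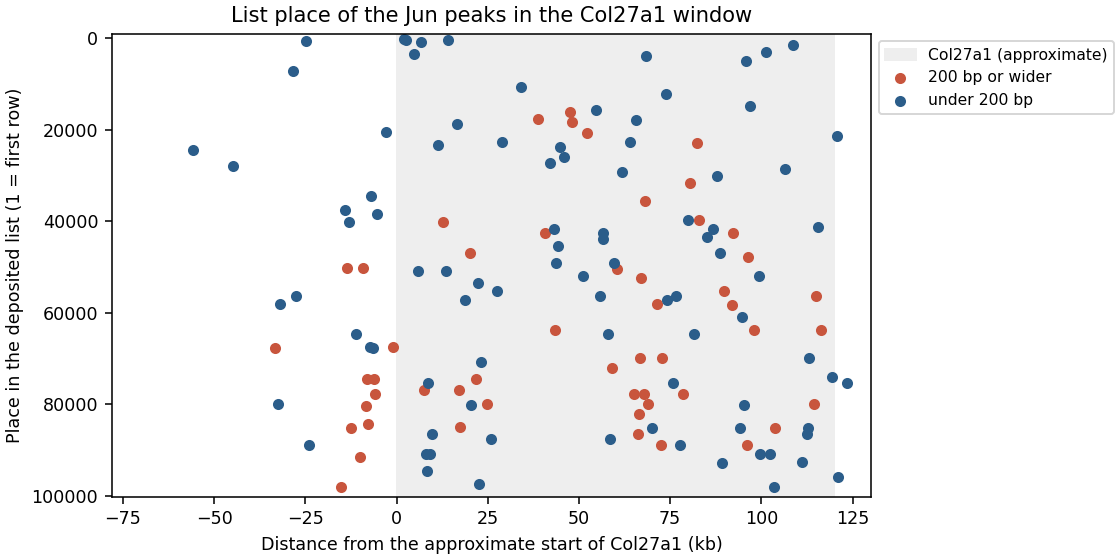
Place of each of the 143 peaks in the deposited list, with the first row at the top, by distance from the approximate start of Col27a1 in kb. Shading marks the gene and colour the width. No wide peak stands in the first 10% of the list, and 4 of the 5 members among the first 1000 rows stand within 15 kb of the gene start, inside the gene.

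The earliest-listed peaks lay at the beginning of the gene. Among the first 1000 rows were 5 members, and 4 of them lay in the first part of the gene. After the peak at place 111, these were a peak of 86 bp at place 373 (62890170 to 62890255), one of 91 bp at place 474 (62878621 to 62878711) and one of 107 bp at place 912 (62882678 to 62882784). The remaining one, of 91 bp at place 634 (62851146 to 62851236), lay 24.8 kb before the gene. The next earliest members, at places 1496 and 3119, lay 109 and 101 kb into the gene. The first part of the gene held 5 of the 11 members of the first 10% of the list. It also held 4 of the 12 members of the last 10%, so early and late rows stood side by side there. The latest members were at places 98089 (62860540 to 62860992, 453 bp), 98086 (62979252 to 62979368, 117 bp) and 97349 (62898572 to 62898590, 19 bp).

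Early rows were narrow in the whole list, and the members among them were too. The 11 members in the first 10% of the list measured 24 to 161 bp, with a median of 91 bp, against 106 bp for the other peaks of the same rows. None of the 11 was wide, against 4.65% of the others, a share at which so few members could not show a difference. Of the 18 members between 70% and 80% of the list, 12 were wide, against 17.9% of the other peaks there. Of the 52 wide members, 13 stood in the first 50% of the list and 39 in the last 50%. The wide share rose along the whole list too, from 4.65% in its first 10% to 24.7% in its last 10%. Across all 143 members, rho between place and width was 0.092 and r was 0.16, the last 10% of the list holding 2 wide members among 12. Place had a rho of -0.33 and an r of -0.23 with the distance to the nearest midpoint.

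Members often stood almost next to each other in the list. Spread evenly, 143 peaks would be 693 places apart, yet 54 of them (37.8%) had another member within 10 places. These formed 30 pairs in list order, and no pair consisted of adjacent peaks of the locus. Adjacent peaks are only a small share of all possible pairs of members, so nothing is read from their absence here. The midpoints of the 30 pairs were 2081.5 to 120205.5 bp apart, with a median of 29721.5 bp. Peaks of 443 bp (62940863 to 62941305) and 341 bp (62943615 to 62943955) held places 77604 and 77605, and a peak of 232 bp (62954281 to 62954512) held place 77611. Peaks of 495, 416 and 496 bp, the outer ones 89.7 kb apart, held places 79926, 79930 and 79934. In the crowd before the gene, wide peaks of 414 and 383 bp held places 74340 and 74341.

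Close list places began late. The first such pair stood at place 39757, after 40 of the members. Counting any peak of the list within 250 kb as the partner, 56 of the 143 members (39.2%) had one within 10 places, against 12.5% of the rest of the list. In the rest of the list this share was 1.49% in the first 10% of rows and 23.3% between 70% and 80%. A locus with more peaks offers more partners, and the part of this in the share was not tested.

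The 2 next fullest chains of peaks lay on other chromosomes. Compared with the loci around them, Col27a1 had similar spacing, and higher shares of wide peaks and of close list places, which were not tested. Windows of the same length around these chains held 158 peaks on chromosome 1 (92558246 to 92808245), more than the 143 at Col27a1, and 137 on chromosome 7 (124478353 to 124728352). Median spacing was 840.5 bp at Col27a1, 810.5 bp on chromosome 1 and 798 bp on chromosome 7. Median width was 135 bp at Col27a1, 130 bp on chromosome 1 and 126 bp on chromosome 7. The share of peaks of 200 bp or more was 36.4% at Col27a1, 29.1% (95% interval 22.2 to 36.9) on chromosome 1 and 24.8% (17.8 to 32.9) on chromosome 7, and these intervals overlapped that of Col27a1. Close list places occurred for 54 of 143 peaks at Col27a1, 34 of 158 (21.5%) on chromosome 1 and 28 of 137 (20.4%) on chromosome 7.

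**Figure D5:**
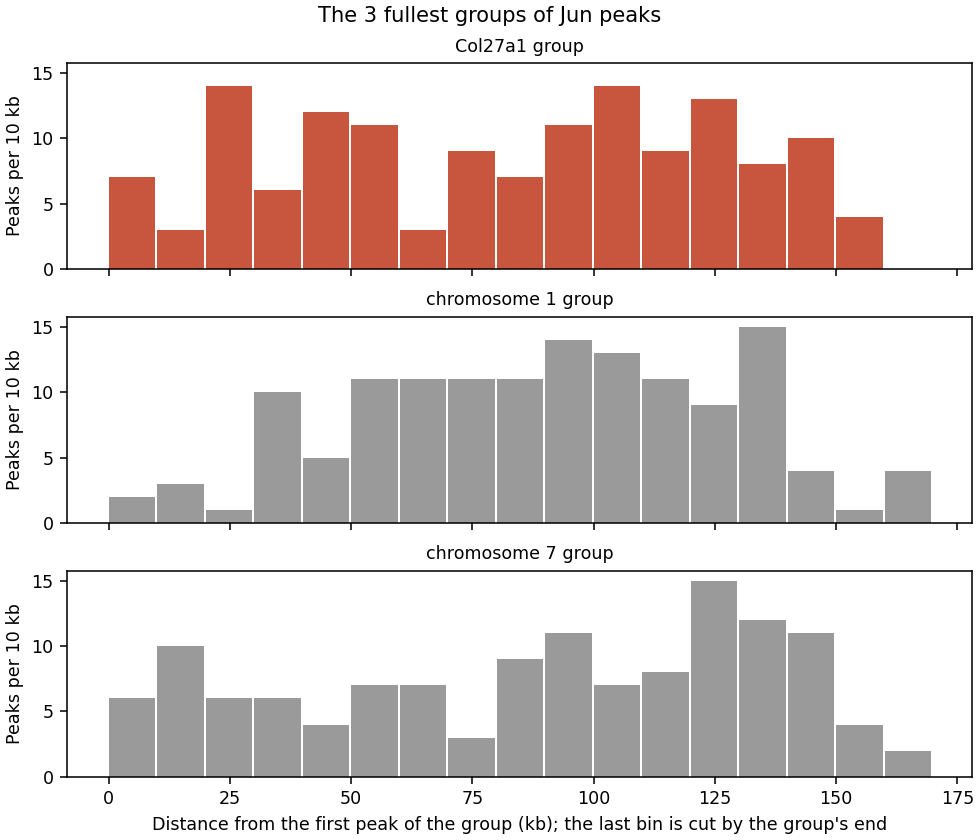
Jun peaks per 10 kb bin along the 3 fullest chains of peaks, by distance in kb from the first peak of each. Over complete bins the counts run from 3 to 14 at Col27a1, 1 to 15 on chromosome 1 and 3 to 15 on chromosome 7.

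The 3 chains had different outlines. At Col27a1 the fullest bins, with 14 peaks each, stood apart, 20 and 100 kb from its first peak, with 3 peaks in the bins at 10 and 60 kb. On chromosome 1 the counts were 9 or more in each bin from 50 to 130 kb. On chromosome 7 the fullest bin, with 15 peaks, lay 120 kb along. Taken as chains, Col27a1 held 8.98 peaks per 10 kb (95% interval 7.56 to 10.6), chromosome 1 held 8.03 (6.74 to 9.50) and chromosome 7 held 7.85 (6.55 to 9.34), so the counting intervals overlapped. Peaks covered 17.1% of the chain at Col27a1, 13.7% of that on chromosome 1 and 13.1% of that on chromosome 7.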

How the data were processed

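The authors deposited 1 list of Jun peaks with chromosome, start and end only, on build mm9 per the submitters' processing notes. The records at hand do not name the aligner or the peak caller, or tell whether the input was used. The list carries the label FDR1, which may stand for a limit on the false discovery rate, but no cutoff is spelled out. Rows name no sample, so the list was assigned to the only Jun library. Starts were counted from 1, a peak's position is its midpoint, and density and spacing were computed with Python 3.11.15, pandas 2.3.3, numpy 2.4.6 and scipy 1.17.1. Peaks of 200 bp or more are called wide. Intervals are exact Poisson for densities, exact Clopper-Pearson for shares and order-statistic for medians, all at 95%, and cover counting error only. Where intervals are said to overlap, this is a description and does not show that the values are equal. Chains join midpoints within 10 kb. The functions were tested on simulated data, 20 lists with 60 planted peaks each, and recovered them in 20. The window, the comparisons and the alternatives were chosen with earlier results of these data known. Named peaks are the 5 widest, the 3 earliest and 3 latest in the list, the first and last of the window, those at the 3 longest gaps, and the fullest bin and run. Others named (the narrowest, those at the gene's ends, and peaks of further runs, gaps and close list places) were chosen after their values were seen. No genome of mm9 was at hand, so peak sequences and gene features were not used here, and promoter and microRNA sequences come from RefSeq tables of GRCm38.p6.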

Additional observations from a re-analysis of the deposited data

How the results depend on the processing

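Of 38 alternatives over 17 values, 24 left the value within its counting interval or, for counts, within 1.5 times. Merging peaks whose edges lie within 1000 bp gave 52 regions in place of 143 peaks, at most 4 in place of 15 per 10 kb, a median spacing of 3210 bp in place of 840.5, a median width of 581 bp in place of 135 and 61.5% in place of 36.4% of 200 bp or more, since merging joins neighbours by construction. In the first 50% of the list the fullest bin held 6 peaks and 22.4% were wide. In the last 50% the median width was 175 bp and 45.9% were wide. Fewer peaks enter by construction in each. The wide share rose along the whole list as well, and the cause of the difference in width was not tested. The fullest run held 5 peaks with a limit of 500 bp and 26 with 2 kb, against 12 with 1 kb. Densities of the chains themselves were 8.98 per 10 kb at Col27a1 (5.72 for the window), 8.03 on chromosome 1 (6.32) and 7.85 on chromosome 7 (5.48), because the windows include emptier sequence. The share of peaks within the gene stayed between 75.3% and 82.8% in the alternatives run. No paired analysis was possible because the result comes from 1 list without replicates. Without read depth, a stretch without peaks cannot be taken as unbound.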
